A study of Homo sapiens with 4 samples.

Results

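The 10 genes described here code for integrin subunits of epithelial cells: the alpha chains ITGA2, ITGA3, ITGA5, ITGA6 and ITGAV and the beta chains ITGB1, ITGB4, ITGB5, ITGB6 and ITGB8. They are 10 of the 58735 genes measured, and all 10 were found by gene identifier. They were chosen by name to set ITGA2, selected on its lower FPKM in the libraries labelled KIF26B siRNA, beside the other alpha and beta chains. Those FPKM values are the ones given below, so the differences of the 10 genes are a description and carry no test.

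RNA sequencing measured HCT116, a human colorectal cancer cell line, 48 h after transfection. There were 4 libraries, 2 from cells given control siRNA and 2 from cells given siRNA against KIF26B, a kinesin family gene. The untransfected line was not analysed here, so all 4 libraries share the transfection itself. The libraries of a group are numbered 1 and 2, the labels do not say that they came from separate cultures, and which siRNA each KIF26B library received is not given in the sources used here. Any p below therefore measures only the spread between these libraries, which may be technical. In its migration assays the study used 2 independent siRNAs against KIF26B. If the 2 KIF26B libraries received different ones, a gap between siRNAs cannot be told apart from other spread.

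Integrins are cell surface receptors made of 1 alpha and 1 beta chain, and they tie the extracellular matrix outside the cell to the actin or keratin skeleton inside it. Which matrix protein is bound depends on the pair. ITGB1 is the common partner, joining ITGA2 in a collagen receptor, ITGA3 or ITGA6 in laminin receptors, ITGA5 in the main fibronectin receptor and also ITGAV. ITGB4 pairs only with ITGA6, in the hemidesmosomes that hold epithelial cells to the basement membrane of tissues such as the gut. ITGB5, ITGB6 and ITGB8 pair only with ITGAV, in receptors for vitronectin and fibronectin and, for ITGB6 and ITGB8, for the latent form of TGF-beta.

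KIF26B itself was low in every library, at 0.110 and 0.205 FPKM in control siRNA libraries 1 and 2 and at 0.140 and 0.0307 FPKM in KIF26B siRNA libraries 1 and 2. FPKM is a read count scaled to gene length and to the reads of the library, so it can be compared between genes of different length. These levels rest on 31, 73, 43 and 8 reads. The library labelled KIF26B siRNA 1 lay between the controls, and the libraries are therefore named by their labels throughout. Reads worked back from the FPKM values summed to 19611295 to 25388762 a library. In every library that sum exceeded the inferred divisor of the FPKM values, which was 18068934 to 24673739, so the sums are approximate. Mitochondrial genes took 6.68% and 6.69% of these reads in the controls and 9.38% and 7.53% in KIF26B siRNA libraries 1 and 2, and these shares are approximate too. The part of mitochondrial reads in the differences below was not tested. Of 9 markers of colorectal epithelium, 7 averaged at least 1 FPKM, among them EPCAM, CDH1, KRT8 and CDX2. CDX1 was at 0 in every library, and CEACAM5 was at 0.0152 FPKM in control library 1 and at 0 elsewhere. Their summed level was 1759 to 1774 FPKM in the controls and 1622 to 1702 FPKM in the libraries labelled KIF26B siRNA. That sum mixes directions. KRT19 was higher in both KIF26B siRNA libraries, at 921 and 951 against 842 and 862 FPKM. KRT8 was lower, at 369 and 350 against 485 and 482 FPKM, as were KRT18 and CDH1. EPCAM, CLDN4 and CDX2 had the KIF26B siRNA libraries on opposite sides of the controls. None of the 5 leukocyte, 4 endothelial or 3 platelet markers was found at 1 FPKM or more (the endothelial marker PECAM1 was not matched by name), and PF4, PPBP and GP9, which define platelets, were at 0 in all 4 libraries. Of 6 fibroblast and muscle markers, COL1A1 and ACTA2 reached 1 FPKM, and the summed level was 7.75 to 7.91 FPKM in the controls and 7.11 to 10.1 FPKM in the libraries labelled KIF26B siRNA.

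The stretch of DNA around the start of 3 of the genes is shown for the members with the strongest, the second strongest and the least difference among the lowered ones, which are ITGA2, ITGAV and their shared partner ITGB1. Each runs 5′ to 3′ on the strand of its gene, from 250 bases before the RefSeq start to 50 bases after it, in build GRCh38.p14. ITGA2 is at chr5:52989102-52989401 on the plus strand, ITGAV at chr2:186589806-186590105 on the plus strand and ITGB1 at chr10:32958181-32958480 on the minus strand. Capitals mark matches, on either strand, to the AP-1 letters TGANTCA, the TEAD letters GGAATG, the ETS letters CCGGAA or the GC box letters GGGCGG.
ITGA2: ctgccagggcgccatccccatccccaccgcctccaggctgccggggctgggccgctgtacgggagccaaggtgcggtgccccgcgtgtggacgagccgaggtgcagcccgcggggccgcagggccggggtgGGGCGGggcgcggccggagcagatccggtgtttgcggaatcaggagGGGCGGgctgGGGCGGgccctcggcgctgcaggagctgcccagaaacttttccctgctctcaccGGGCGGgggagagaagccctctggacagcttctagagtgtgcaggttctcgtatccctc
ITGAV: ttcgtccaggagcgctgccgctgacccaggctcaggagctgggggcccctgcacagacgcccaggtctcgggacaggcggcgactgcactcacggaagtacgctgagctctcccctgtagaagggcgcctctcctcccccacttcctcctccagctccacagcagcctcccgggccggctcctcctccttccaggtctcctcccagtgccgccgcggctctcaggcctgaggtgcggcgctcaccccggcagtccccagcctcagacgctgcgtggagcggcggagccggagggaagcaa
ITGB1: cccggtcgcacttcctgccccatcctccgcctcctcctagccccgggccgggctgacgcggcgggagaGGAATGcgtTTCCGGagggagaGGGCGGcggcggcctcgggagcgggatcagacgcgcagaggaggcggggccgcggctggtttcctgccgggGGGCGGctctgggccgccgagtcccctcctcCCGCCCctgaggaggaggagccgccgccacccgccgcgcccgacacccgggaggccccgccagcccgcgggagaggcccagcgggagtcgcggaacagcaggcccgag
The ITGA2 window held 4 GC box matches and none to the other 3 motifs. The ITGAV window held no match to any of the 4 motifs. The ITGB1 window held 3 GC box matches, 1 TEAD match and 1 ETS match. A GC box match was present in 44.95% of all 35116 promoter windows of this length, an ETS match in 17.2%, a TEAD match in 14.03% and an AP-1 match in 7.71%. The 3 windows were rich in G and C, at 72.7%, 70.7% and 78.3% against a median of 58.7% over all windows. RefSeq windows were matched for 8 of the 10 genes, all but ITGA3 and ITGB4. RefSeq gave 2 windows each for ITGAV, ITGB1 and ITGA6 and 3 for ITGB5. For these genes only the window at the outermost annotated start of the gene is described. Among the other 5, ITGA5 held the only AP-1 match, together with 1 TEAD and 1 GC box match, and ITGB6 held none of the 4 motifs. Their G and C content lay on both sides of the 58.7% median. ITGA5 and ITGB8 were above it, at 69.3% and 71.7%. ITGA6, ITGB5 and ITGB6 were below it, at 53.0%, 49.7% and 31.7%. A match of letters describes the sequence and says nothing of binding.

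In the control siRNA libraries, RNA for ITGB1 was the most abundant of the 10 at 119.3 ± 0.39 FPKM (mean ± SD, n = 2, as for all group values below). It was followed by ITGB4 at 84.8 ± 0.099, ITGA3 at 79.9 ± 0.82, ITGA6 at 66.2 ± 0.50 and ITGA2 at 54.0 ± 0.51 FPKM. A second tier held ITGB5 at 27.7 ± 0.73, ITGA5 at 20.7 ± 0.24 and ITGAV at 16.8 ± 0.54 FPKM. ITGB8, at 0.728 FPKM, was 23.1-fold below ITGAV, and ITGB6 came last at 0.0379 FPKM. No neighbours in this order overlapped between their control libraries, although ITGB4 exceeded ITGA3 by only 1.06-fold. HCT116 cells thus held RNA for the collagen receptor chain, the laminin receptor chains and ITGB5, and very little for the beta chains ITGB6 and ITGB8.

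**Figure D1:**
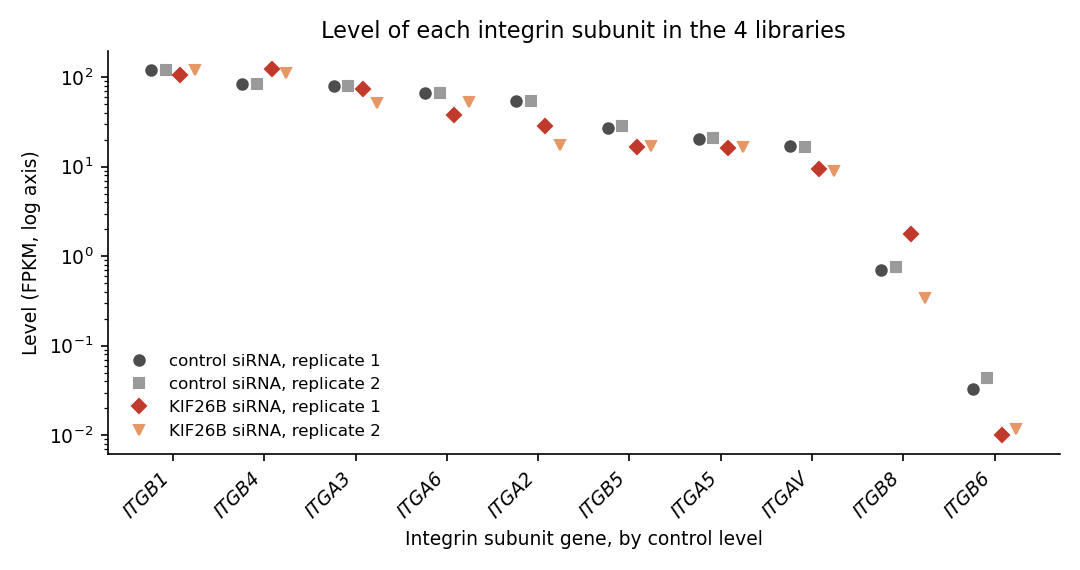
Level of each of the 10 integrin subunit genes in FPKM on a log axis, with 1 marker for each of the 4 libraries. ITGB1, ITGB4, ITGA3, ITGA6 and ITGA2 lie above 50 FPKM in both control libraries, while ITGB8 and ITGB6 lie below 1 FPKM there.

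ITGA2, the alpha chain of the collagen receptor, was the member with the largest difference between the groups. ITGA2 (ENSG00000164171, on the plus strand of chromosome 5 from 52989352 to 53094779) had 53.6 and 54.3 FPKM in control libraries 1 and 2, and 28.5 and 17.4 FPKM in KIF26B siRNA libraries 1 and 2. Both KIF26B siRNA libraries lay below both controls, and the lower of them was 1.64-fold below the other. The group means were 54.0 ± 0.51 and 22.9 ± 7.87 FPKM, a ratio of 0.425. On the log2(FPKM + 1) scale, the difference was -1.24 with a standard error of 0.26. The values rested on 8322, 10601, 4816 and 2482 reads, so counting error was small beside the gap between the KIF26B siRNA libraries. In RNA from whole cultures, fewer cells with ITGA2 RNA and less of it per cell cannot be told apart.

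Genes were called lower or higher where the unadjusted p from limma was under 0.05 and the difference was more than 1 on the log2 scale. These thresholds are those of the study, which applied them to DESeq2 results rather than to log2(FPKM + 1), so its calls can differ. Of the 10 members, 8 averaged at least 1 FPKM and entered the fit, and ITGB6 and ITGB8 did not. ITGA2 alone was past these thresholds, against 88 of all 14523 genes tested (0.606%) called lower and 118 (0.813%) called higher. Since ITGA2 was listed because of this contrast, nothing is read from that count. Without KIF26B siRNA library 2 the difference of ITGA2 was -0.90 and no longer past the log2 threshold, while without library 1 it was -1.58. ITGA2, at -1.24, was the only member beyond the log2 threshold of -1, and ITGAV, at -0.80, was the nearest member short of it. A difference at or below that of ITGA2 was seen in 47 genes, 0.324% of those tested. ITGA2 was selected on this difference, so nothing is read from that share either. No gene passed an adjusted p of 0.05 by limma with Benjamini-Hochberg adjustment, where the smallest adjusted p was 0.242. With limma-voom on recovered reads the smallest adjusted p was 0.150, and none passed either. The unadjusted p was under 0.05 for 2385 genes by limma and 2602 by limma-voom.

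**Figure D2:**
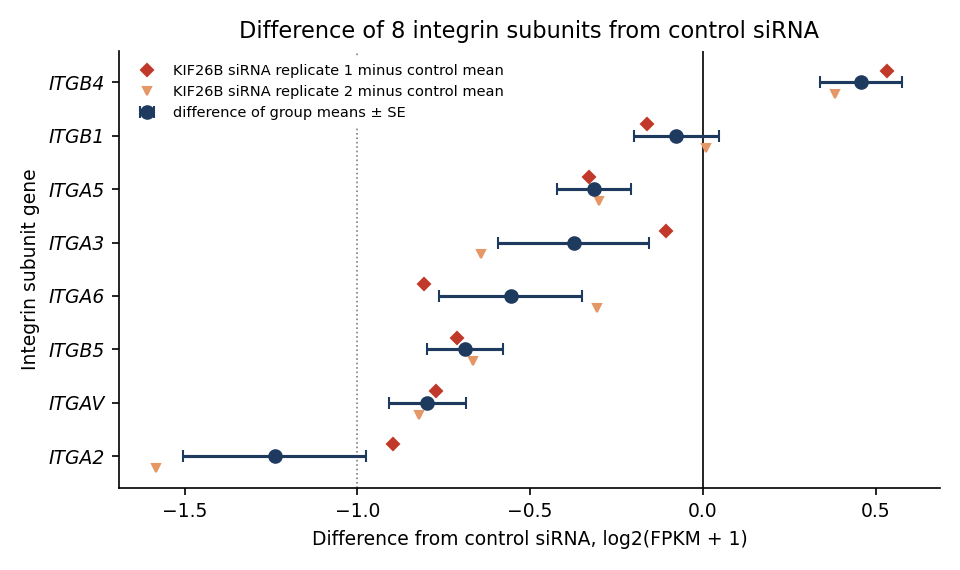
Difference of each of the 8 subunits with at least 1 FPKM from control siRNA on the log2(FPKM + 1) scale, with the difference of group means ± SE as circles and bars and each KIF26B siRNA library as its own marker. The dotted line marks -1, and ITGA2 at -1.24 is the only subunit whose group difference lies beyond it.

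Among the laminin receptor chains, the alpha chains were lower in the libraries labelled KIF26B siRNA and ITGB4 was higher. ITGA3 (ENSG00000005884, plus strand of chromosome 17, 50056110 to 50090481), whose pair with ITGB1 binds laminin and sits with the tetraspanin CD151, had 79.3 and 80.5 FPKM in the controls and 74.2 and 50.8 FPKM in KIF26B siRNA libraries 1 and 2. Both libraries lay below the controls, but library 1 only slightly, at 0.928 of the control mean against 0.636 for library 2. The difference was -0.37 with a standard error of 0.22.

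ITGA6 (ENSG00000091409, plus strand of chromosome 2, 172427336 to 172506459), which serves both laminin pairs, had 66.5 and 65.8 FPKM in the controls and 37.4 and 53.4 FPKM in KIF26B siRNA libraries 1 and 2. Here it was library 1 that lay further down, at 0.565 of the control mean against 0.807 for library 2, the opposite order to ITGA2 and ITGA3. The difference was -0.56 with a standard error of 0.21.

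ITGB4 (ENSG00000132470, plus strand of chromosome 17, 75721459 to 75757818), whose long tail binds plectin and so the keratin filaments, had 84.9 and 84.8 FPKM in the controls and 123.2 and 110.9 FPKM in KIF26B siRNA libraries 1 and 2. It was the only tested member with both KIF26B siRNA libraries above both controls, at 1.38 times the control mean and with a difference of 0.46 and a standard error of 0.12. ITGB4 overlaps GALK1 on the opposite strand, and whether the counting used strand is not stated. GALK1 had 954, 1252, 988 and 893 reads in control libraries 1 and 2 and KIF26B siRNA libraries 1 and 2, against 11267, 14139, 17790 and 13543 for ITGB4.

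Among the chains of the fibronectin and vitronectin receptors, 3 were lower by similar amounts in both libraries labelled KIF26B siRNA. ITGAV (ENSG00000138448, plus strand of chromosome 2, 186590056 to 186680901), the alpha chain that binds the RGD letters of its ligands with several beta partners, had 17.2 and 16.4 FPKM in the controls and 9.41 and 9.07 FPKM in KIF26B siRNA libraries 1 and 2. The KIF26B siRNA libraries nearly coincided, at 0.550 of the control mean, and the difference was -0.80 with a standard error of 0.11. ITGB5 (ENSG00000082781, minus strand of chromosome 3, 124761948 to 124901418), its vitronectin-binding partner, had 27.2 and 28.2 FPKM in the controls against 16.5 and 17.1 FPKM.

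ITGB5 likewise showed no overlap between the groups, with a ratio of 0.607 and a difference of -0.69 with a standard error of 0.11. ITGA5 (ENSG00000161638, minus strand of chromosome 12, 54395261 to 54419266), the alpha chain of the fibronectin receptor, had 20.6 and 20.9 FPKM in the controls and 16.3 and 16.7 FPKM in KIF26B siRNA libraries 1 and 2. Its difference was smaller, -0.32 with a standard error of 0.11, again without overlap.

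ITGB1 (ENSG00000150093, minus strand of chromosome 10, 32900318 to 32958230), the common beta chain, had 119.6 and 119.03 FPKM in the controls and 106.6 and 119.9 FPKM in KIF26B siRNA libraries 1 and 2. It was the only tested member whose groups overlapped, since KIF26B siRNA library 2 lay above both controls. Its difference of -0.08 was smaller than its standard error of 0.12. A processed pseudogene copy, ITGB1P1, had 561 to 834 reads a library against 13026 to 17654 for ITGB1, and reads of the copies could be shared between them.

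The beta chains ITGB6 and ITGB8, which activate TGF-beta with ITGAV, were too low for the fit. ITGB6 (ENSG00000115221, minus strand of chromosome 2, 160099671 to 160200272) had 3 and 5 reads in the controls and 1 read in each KIF26B siRNA library, and the exact 95% Poisson intervals, which cover counting error only, ran from 0.619 to 8.77 and 1.62 to 11.7 in the controls and from 0.0253 to 5.57 in each KIF26B siRNA library. At this depth no difference of ITGB6 was detectable. ITGB8 (ENSG00000105855, plus strand of chromosome 7, 20329766 to 20415754) had 0.699 and 0.757 FPKM in the controls, 1.79 FPKM in KIF26B siRNA library 1 and 0.340 FPKM in library 2. The KIF26B siRNA libraries lay on opposite sides of the controls, at 2.46 and 0.467 times the control mean, and differed from each other by 5.27-fold. Counting error did not cover that gap, since the 95% intervals were 1.65 to 1.94 FPKM and 0.274 to 0.416 FPKM, on 580 and 93 reads.

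Across the 8 members in the fit, both KIF26B siRNA libraries lay below both controls for 6, against 27.8% of all genes tested, and above both for ITGB4 alone, against 24.9%. Because the members were chosen with this contrast known, nothing is read from these counts, and the medians that follow are a description only. Their median difference was -0.47 on the log2 scale, beside -0.01 for all genes tested. The 7 members other than ITGA2 had a median of -0.37, and ITGA2 differed from that median by -0.87. This last value was -1.28 without KIF26B siRNA library 1 and -0.57 without library 2. The other 4 alpha chains had a median of -0.47, and the 3 beta chains in the fit had a median of -0.08, with ITGB5 low, ITGB1 near 0 and ITGB4 high.

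The KIF26B siRNA libraries differed from each other more than the controls did. Over all genes tested, the median absolute gap was 0.28 on the log2 scale between the KIF26B siRNA libraries and 0.07 between the controls. Over the 8 members it was 0.16 and 0.02. ITGA2, ITGA3 and ITGA6 had a gap of more than 0.5, as did 25.9% of all genes tested. ITGAV, ITGB5 and ITGA5 lay close to the line of equal difference, and for these chains the group difference does not rest on either library alone.

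**Figure D3:**
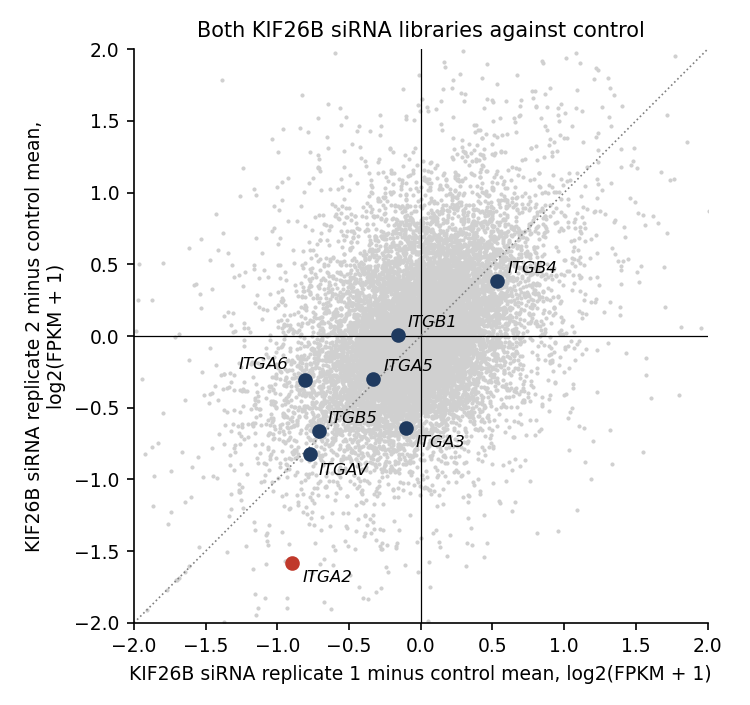
Difference of each gene from the control mean in KIF26B siRNA library 1 (horizontal) and library 2 (vertical), both in log2(FPKM + 1), with all genes tested in grey, ITGA2 in red and the other 7 subunits in blue. ITGAV, ITGB5 and ITGA5 lie near the dotted line of equal difference, ITGA2 and ITGA3 lie below it and ITGA6 above it, and 46 genes fall outside the axes.

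Ratios of chains within a library do not depend on how libraries are scaled to each other. The ratio of ITGA2 to its partner ITGB1 was 0.448 and 0.456 in the controls and 0.267 and 0.145 in KIF26B siRNA libraries 1 and 2, so it was lower in both and went from 0.452 ± 0.0057 to 0.206 ± 0.087. The ratio of ITGA6 to ITGB4, the chains of the hemidesmosome receptor, was 0.783 and 0.776 in the controls and 0.303 and 0.481 in KIF26B siRNA libraries 1 and 2. Its group mean in the libraries labelled KIF26B siRNA was 0.503 times that of the controls, since the alpha chain was lower while the beta chain was higher.

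The ratio of ITGAV to ITGB5 moved little, from 0.631 and 0.581 in the controls to 0.569 and 0.530 in KIF26B siRNA libraries 1 and 2. The groups did not overlap, but the means of 0.606 ± 0.035 and 0.549 ± 0.028 were separated by a ratio of only 0.906. The ratio of ITGB4 to ITGB1 went the other way, from 0.710 and 0.712 to 1.16 and 0.924. ITGB4 thus took first place from ITGB1 in library 1, and the other 8 members kept their places in the order of group means. In the libraries labelled KIF26B siRNA, the ranges of ITGB4 and ITGB1, of ITGA3 and ITGA6, and of ITGB5 and ITGA5 overlapped.

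**Figure D4:**
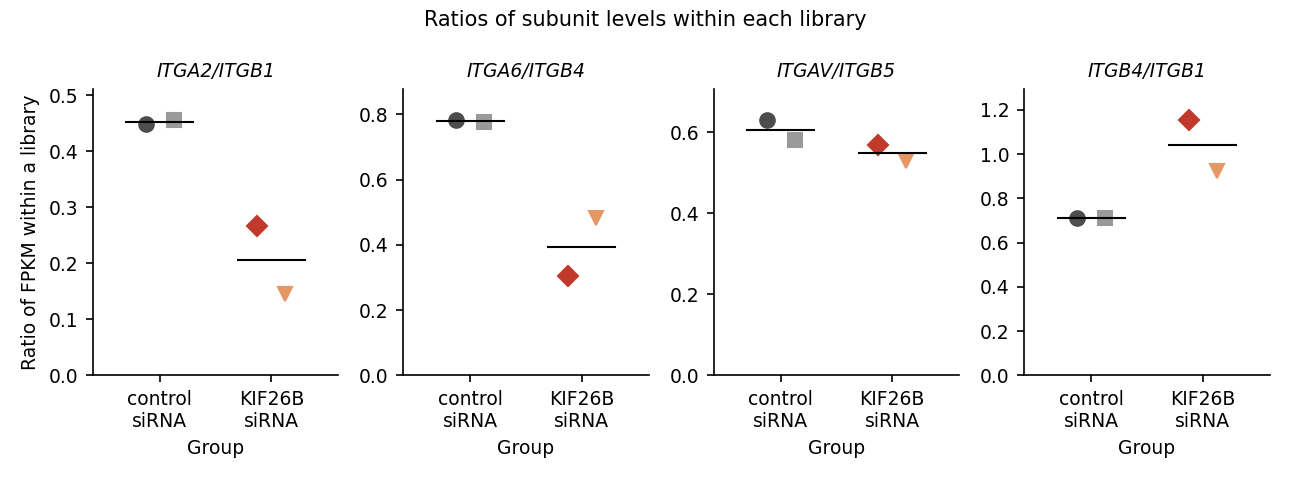
Ratio of FPKM between pairs of subunits within each library, for ITGA2 to ITGB1, ITGA6 to ITGB4, ITGAV to ITGB5 and ITGB4 to ITGB1, with circles and squares for control libraries 1 and 2, diamonds and triangles for KIF26B siRNA libraries 1 and 2, and lines at the group means. The first 2 ratios are lower in both libraries labelled KIF26B siRNA, the ratio of ITGAV to ITGB5 differs little, and the ratio of ITGB4 to ITGB1 is higher in both.

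Summed over the 5 alpha chains, the level was 237.2 and 237.9 FPKM in the controls and 165.8 and 147.3 FPKM in KIF26B siRNA libraries 1 and 2. ITGA2 made up 22.6% and 22.8% of that sum in the controls, 17.2% in library 1 and 11.8% in library 2. The share of ITGA3 was 33.5% and 33.8% in the controls and 44.8% and 34.5% in KIF26B siRNA libraries 1 and 2. The share of ITGA6 was lower in library 1, at 22.5%, and higher in library 2, at 36.2%, than the 28.0% and 27.7% of the controls. The laminin receptor chains therefore made up the larger part of alpha chain RNA in all 4 libraries, with a different chain leading in each KIF26B siRNA library. The alpha chains summed to 1.98 and 1.999 times the level of ITGB1 in the controls, 1.56 times in library 1 and 1.23 times in library 2. ITGB1 is not their only partner, since ITGA6 also pairs with ITGB4 and ITGAV with ITGB5, so this does not compare all alpha with all beta chains.

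**Figure D5:**
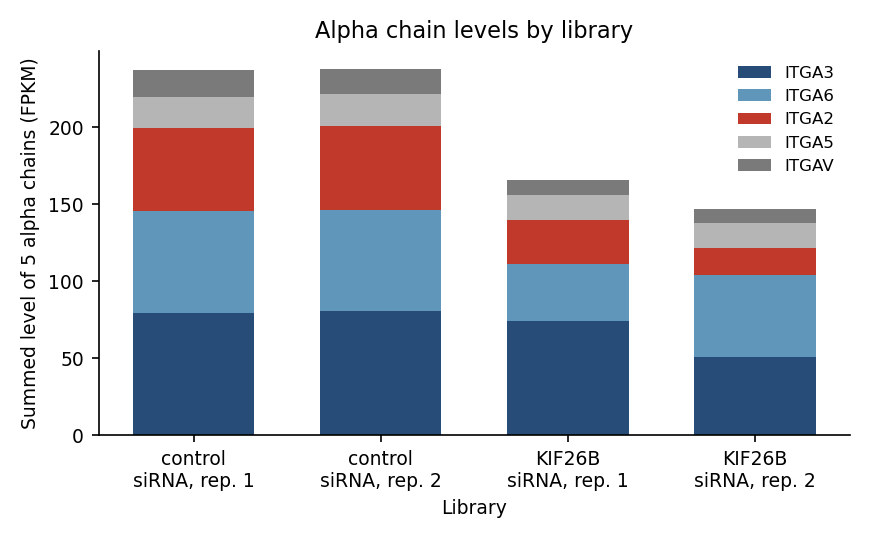
Level of the 5 integrin alpha chains in each of the 4 libraries, stacked in FPKM. The stack is 237.2 and 237.9 FPKM in the control libraries and 165.8 and 147.3 FPKM in KIF26B siRNA libraries 1 and 2, and the ITGA2 layer shrinks from 22.6% of it to 17.2% and 11.8%.

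The 5 genes whose pattern over the 4 libraries was nearest to that of ITGA2 were OIP5, TIMP2, H2AX, FRMD8 and COL12A1, by Euclidean distance between centred log2(FPKM + 1) values. OIP5, which codes for a centromere protein, was nearest at a distance of 0.030, with 13.7 and 14.2 FPKM in the controls and 7.01 and 4.07 FPKM in KIF26B siRNA libraries 1 and 2. TIMP2, an inhibitor of matrix metalloproteinases, followed at 0.11, with 45.7 and 41.9 FPKM against 22.2 and 14.1 FPKM. The nearest members were ITGAV at 0.63, ITGB5 at 0.76 and ITGA3 at 0.87, and the farthest was ITGB4 at 1.74. With 4 libraries these distances describe likeness of pattern and nothing more.

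Of 16 other integrin subunit genes, 4 averaged at least 1 FPKM, namely ITGA7, ITGAE, ITGA2B and ITGAX. None of them was called in either direction by limma on log2(FPKM + 1), where 0.606% and 0.813% of all genes were called lower and higher. Their median difference was -0.34. ITGA7, a laminin receptor chain of muscle, had 5.95 and 6.12 FPKM in the controls and 3.72 and 5.25 FPKM in KIF26B siRNA libraries 1 and 2, a difference of -0.37 with an adjusted p of 0.388 by limma. ITGAX, a chain of myeloid cells, had 1.58 and 1.38 FPKM against 0.457 and 0.931 FPKM, a difference of -0.56 with an adjusted p of 0.288 by limma. The ratio of its group means was 0.470, and at this level the added 1 FPKM shrinks the difference. ITGAX was called lower by limma-voom, and also with 0.1 added in place of 1. For ITGAE, at -0.30, and ITGA2B, at -0.05, the adjusted p by limma was 0.323 and 0.924.

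Of 38 genes for matrix proteins and other integrin ligands, 22 were tested, 3 were called lower and none higher, where 0.606% and 0.813% of all genes were. The list was chosen with earlier results of these data known, so nothing is read from that count. The 3 were CCN2, THBS1 and COL12A1, and the median of the 22 was -0.14. CCN2, a matricellular protein bound by ITGAV receptors, had 5.21 and 5.18 FPKM in the controls and 1.02 and 1.04 FPKM in KIF26B siRNA libraries 1 and 2, a difference of -1.61 with a standard error of 0.11 and an adjusted p of 0.242 by limma. THBS1, thrombospondin, had 4.46 and 4.58 FPKM against 1.31 and 1.499 FPKM, a difference of -1.20 with a standard error of 0.11 and the same adjusted p. COL12A1, a collagen that decorates fibrils, had 24.4 and 23.9 FPKM against 14.4 and 7.33 FPKM, a difference of -1.15 with a standard error of 0.33 and an adjusted p of 0.272 by limma. Leaving out control library 1 or control library 2 left 2 of the 22 called lower, and leaving out KIF26B siRNA library 2 gave 4.

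Of 41 genes for integrin adaptors and signalling proteins, 38 were tested and none was called. Of all genes tested, 0.606% were called lower and 0.813% higher. The list had 27 differences below 0 and 11 above 0, with a median of -0.23 beside -0.01 for all genes tested. Since the list was chosen with earlier results of these data known, nothing is read from these counts. The 3 most abundant were RHOA, ACTN4 and FLNA, all parts of the actin machinery. ACTN4, an actin crosslinker at adhesions, had 212.8 and 218.5 FPKM in the controls and 131.8 and 168.0 FPKM in KIF26B siRNA libraries 1 and 2, a difference of -0.53 with an adjusted p of 0.276 by limma. FLNA, an actin crosslinker that binds beta chain tails, had 164.9 and 165.8 FPKM against 92.2 and 173.4 FPKM, so that its groups overlapped, with a difference of -0.38 and an adjusted p of 0.605 by limma. RHOA, the GTPase that drives contraction, differed by -0.01. Its KIF26B siRNA libraries 1 and 2 lay on opposite sides of the controls, at 203.1 and 248.5 against 224.2 and 228.0 FPKM.

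Of 15 genes for integrin trafficking, 14 were tested and none was called, with a median of 0.01. Of all genes tested, 0.606% were called lower and 0.813% higher, so nothing is read from a count of none. CAV1, the caveolar coat protein, had 73.0 and 77.2 FPKM in the controls and 86.6 and 88.1 FPKM in KIF26B siRNA libraries 1 and 2, a difference of 0.22 with an adjusted p of 0.409 by limma. CLTC, the clathrin heavy chain, differed by -0.01, with KIF26B siRNA libraries 1 and 2 on opposite sides of the controls, at 64.9 and 72.0 against 68.8 and 68.9 FPKM. ARF6, a GTPase of integrin recycling, differed by -0.13. Of 14 genes for hemidesmosome and lateral partners of integrins, 13 were tested and none was called, with a median of 0.03. The same shares of all genes apply, and nothing is read from this count either. PLEC, the plectin that ITGB4 binds, had 111.6 and 113.2 FPKM in the controls and 107.8 and 122.2 FPKM in KIF26B siRNA libraries 1 and 2, and differed by 0.03. BSG and EPCAM, glycoproteins of the epithelial cell membrane, differed by 0.11 and 0.08.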

How the data were processed

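The authors deposited 1 table of FPKM values for each of the 4 libraries, with 58735 Ensembl identifiers and no replicates pooled. The submitters' processing notes name HISAT2 2.0.5, featureCounts 1.5.0-p3 and hg38, while the methods of the study name hg19. The identifiers include 4216 that GENCODE marks as new relative to the older GRCh37 set, and coordinates are given from GRCh38.p14. Names came from the GENCODE GRCh37 table for 56513 identifiers. Whole reads were inferred from the FPKM steps for 100% of the 34638 genes above 0, with a tolerance of 0.002 (19611295 to 25388762 reads a library). The gene length behind them matched the annotated length for 50.5% of these genes. For the rest a length that gave whole reads was taken, so their read numbers may be off.

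The 14523 genes averaging 1 FPKM or more were fitted as log2(FPKM + 1) with limma 3.58.1 in R 4.3.3, without covariates, and p-values were adjusted over all of them by Benjamini-Hochberg. Log2 differences understate changes of low genes. With 2 libraries a group, an exact permutation test of 1 gene cannot go below a two-sided p of 0.333. The fit was tested on simulated data. Members and gene lists were chosen with earlier results of these data known. Named genes are the members, KIF26B, other subunits of at least 1 FPKM, called list genes (at most 6 a list, or the 3 most abundant where fewer than 3 were called), and the 5 genes most like ITGA2. Any further gene is marked as picked after seeing its values.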

Additional observations from a re-analysis of the deposited data

How the results depend on the processing

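ITGA2 stayed lower in all 12 alternatives that gave it a value, from -1.58 without KIF26B siRNA replicate 1 to -0.90 without replicate 2, where it was no longer past the threshold of -1. Filters on low values, a replicate block and a variance trend cannot change a difference of means, and left it at -1.24. Its sign could not change with 1 library left out either, since both KIF26B siRNA libraries lay below both controls. Leaving out 1 library at a time gave 132 to 230 genes lower and 155 to 333 higher, against 88 and 118: 194 and 333 without KIF26B siRNA replicate 1, 230 lower without KIF26B siRNA replicate 2, 139 lower without control siRNA replicate 1 and 132 lower without control siRNA replicate 2. A lone library was assumed to vary like the other group. Ranges were -0.64 to -0.11 for ITGA3, -0.33 to -0.30 for ITGA5, -0.81 to -0.30 for ITGA6, -0.83 to -0.77 for ITGAV, -0.16 to 0.0075 for ITGB1, 0.38 to 0.53 for ITGB4, -0.71 to -0.66 for ITGB5, and -1.28 to -0.57 for ITGA2 minus the median of the other subunits. List medians ranged from -0.45 to -0.26 for other integrins, -0.34 to -0.035 for matrix ligands, -0.23 to -0.14 for adaptors, -0.040 to 0.063 for trafficking and -0.059 to 0.14 for hemidesmosome partners, with 2 to 4 matrix ligands and 0 to 1 adaptors called lower.

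At least 1 FPKM in every library left 52 lower and 69 higher, as fewer genes were tested. Equal library totals moved the median of all genes to -0.12 and gave 148 lower and 85 higher, ITGA5 -0.44, ITGAV -0.92, ITGB1 -0.21, ITGB4 0.33 and ITGB5 -0.81, with medians of -0.25 for matrix ligands, -0.33 for adaptors, -0.12 for trafficking and -0.10 for hemidesmosome partners. limma-voom gave 204 lower and 197 higher, ITGAV -0.86, a matrix ligand median of -0.18 and 1 other integrin lower (ITGAX). A pseudocount of 0.1 gave 203 lower, 217 higher, ITGAV -0.85 and the same integrin, 1 lower. Without a filter the medians were -0.037 for other integrins, -0.0026 for matrix ligands and 0.0064 for all genes, which was 0.0012 with median-of-ratios scaling. An adjusted p threshold left 0 genes in either direction and 0 matrix ligands. Unless stated, the cause was not tested.

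Same-numbered libraries did not deviate together (correlation -0.0031). The squared difference between the libraries of a group, over counting noise, was 2.36 for control siRNA and 25.1 for KIF26B siRNA. With spreads so unlike, the correlation cannot decide whether the numbers pair the libraries. A replicate block in the fit called 98 genes lower and 135 higher, with ITGA2 still at -1.24, and the smallest adjusted p by limma was 0.391. FPKM from 31, 73, 43 and 8 reads limits KIF26B, and 1 to 5 reads limit ITGB6.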

Other observations

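Some genes beyond the rule for named genes were picked after their values were seen. FERMT2, kindlin-2, which activates integrins by binding beta chain tails, had 8.72 and 8.44 FPKM in the control libraries and 4.29 and 4.42 FPKM in KIF26B siRNA libraries 1 and 2, a difference of -0.84 with an adjusted p of 0.242 by limma. RAC1, a GTPase of cell spreading, was higher in both, at 75.7 and 79.1 FPKM against 48.1 and 48.7 FPKM, with a difference of 0.67 and the same adjusted p. Neither gene was past the difference of 1.

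Among the laminin genes, LAMA3 had 2.92 and 2.53 FPKM in the controls and 0.823 and 1.26 FPKM in KIF26B siRNA libraries 1 and 2. LAMB3 had 47.1 and 44.6 FPKM in the controls, 27.9 FPKM in library 1 and 75.9 FPKM in library 2, so that the KIF26B siRNA libraries lay on opposite sides of the controls, as they did for ITGB8.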
